A study of Homo sapiens with 4 samples.

Results

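Small noncoding RNAs made up 237 of the 7251 isoforms that the authors' deposited isoform table lists as changed between METTL3-depleted and control HepG2 cells. They were chosen by name alone, as rows named for a 5S or 5.8S ribosomal RNA, a U-numbered RNA, a small nucleolar RNA (SNORD, SNORA, snoU), a small Cajal body RNA (SCARNA), 7SK or a Y RNA. The 237 isoforms carry 44 gene names and fall into 14 classes, of which U6 (70 isoforms) and Y RNA (57) are the largest. HepG2 is an established human hepatoma line, and METTL3 is the catalytic subunit of the enzyme that places N6-methyladenosine on messenger RNA. One group received an siRNA against METTL3 and the other a scrambled siRNA, both delivered with Oligofectamine, repeated at 48 and 96 hours, and followed by harvest on day 7. Each group had 2 libraries, described as biological replicates in the series design, and how the cultures were separated is not stated. RNA was poly(A)-selected, made into TruSeq libraries and read on a Genome Analyzer IIx. METTL3 itself was listed as lower in the authors' deposited tables, with 955 normalized counts in the control and 241 in the knockdown for the gene and 35.6 and 7.47 FPKM for an isoform (fragments per kilobase of transcript, scaled to the mapped total).

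The table gives 1 FPKM value per group, so no spread between libraries can be shown, and it lists only isoforms with an authors' adjusted p under 0.05 and at least a 2-fold difference. Its p-values are the authors' own, and how far they reflect the spread between these libraries cannot be checked here. In bulk RNA, fewer cells making a transcript and less of it per cell cannot be told apart. Library depth is unknown, since only part of each library is listed. Albumin, APOA1 and the other 8 hepatocyte and hepatoma markers checked are in none of the tables, which hold changed features only, so the cell type could not be checked. Of 7 markers of other cell types, CD14, CDH5 and SYP were listed, all higher in the knockdown (4.65 to 24.8, 161 to 1143 and 27.0 to 69.2 normalized counts), and 2 introns of VIM, also a marker, were lower. Their part in the results below was not tested.

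Most of the RNAs in question work without a poly(A) tail. U1, U2, U4, U5 and U6 are the RNA cores of the spliceosome; 5S and 5.8S are parts of the large ribosomal subunit; 7SK holds the elongation kinase P-TEFb inactive; Y RNAs bind the Ro60 protein. Box C/D small nucleolar RNAs (SNORD) guide 2′-O-methylation of ribosomal and spliceosomal RNA, box H/ACA small nucleolar RNAs (SNORA) guide pseudouridylation, and in human cells both are mostly cut out of introns of host genes. U6, 7SK, Y RNA and 5S are made by RNA polymerase III, 5S from a tandem cluster of genes, and the genome holds many shortened or diverged copies of them. Poly(A) selection keeps RNA that carries a tail, so these libraries were not made to sample mature small RNAs. A fragment from the unspliced transcript of a surrounding gene can also fall on the same bases.

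Many of the members are diverged copies of known small RNAs, and the sequences below show some of those on which the results turn. Positions and sequences are those of GENCODE v29 on GRCh38.

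The Y RNA copy in an intron of TOP2A (chr17:40391232-40391338, minus), which encodes a DNA topoisomerase of dividing cells, is shown with RNY1 (chr7:148987136-148987248, minus) because it is the Y RNA with the highest FPKM among those with a GENCODE v29 sequence. Capitals mark bases that differ from RNY1 in one best global alignment.
RNY1: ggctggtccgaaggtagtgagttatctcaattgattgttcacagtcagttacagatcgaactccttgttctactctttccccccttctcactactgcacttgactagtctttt
Y_RNA in TOP2A: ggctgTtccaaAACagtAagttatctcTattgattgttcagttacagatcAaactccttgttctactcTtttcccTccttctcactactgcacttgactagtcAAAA

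The small nucleolar RNAs shown are among the highest of their classes that have a sequence in GENCODE v29. SNORD37 (chr19:3982507-3982572, minus) overlaps an exon of a retained-intron transcript of EEF2, SNORD41 (chr19:12706449-12706518, minus) lies in an intron of TNPO2 and SNORD72 (chr5:40832656-40832735, minus) in an intron of RPL37, all on the strand of the host. SNORA58B (chr1:154259727-154259862, plus) overlaps an exon of a noncoding UBAP2L transcript. In the SNORD sequences capitals mark the box C core searched for (TGATGA, which SNORD72 lacks), and in SNORA58B the ACA that stands before the last 3 bases.
SNORD37: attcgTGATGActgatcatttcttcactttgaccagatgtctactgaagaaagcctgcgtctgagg
SNORD41: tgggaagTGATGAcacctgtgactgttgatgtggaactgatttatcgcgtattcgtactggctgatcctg
SNORD72: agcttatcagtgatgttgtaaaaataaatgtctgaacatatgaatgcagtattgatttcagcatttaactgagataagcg
SNORA58B: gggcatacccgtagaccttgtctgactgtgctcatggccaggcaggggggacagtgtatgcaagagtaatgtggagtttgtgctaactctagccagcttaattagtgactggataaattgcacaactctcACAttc

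Of the 237 small RNA isoforms, 129 (54.4%) were higher and 108 lower in the knockdown, where all listed isoforms were 46.7% higher and 53.3% lower. The common pattern was presence in 1 group only. At 0 in one group were 194 of the 237 (81.9%), against 18.1% of all listed isoforms and 15.9% of the 7014 listed isoforms that are not members. Of these, 108 were listed at 0 in the control, where the share over all listed isoforms is 11.1%, and 86 at 0 in the knockdown, where it is 7.01%. Small RNAs were 3.27% of the table and 14.8% of its 1312 isoforms at 0 in one group.

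The 43 isoforms above 0 in both groups were near balance, 21 higher and 22 lower, beside 43.5% higher and 56.5% lower of the 5939 listed isoforms above 0 in both. They had a median log2 fold change of -1.02 and all those listed had one of -1.10. Because the table holds nothing between a halving and a doubling, that median sits at the edge of a gap. Relative to the table's own median it became 0.080. Among the 19 gene names with at least 2 listed isoforms, 12 had isoforms in both directions. Levels were mostly low: 197 isoforms had 1 to 30 FPKM in their higher group, 14 were below 1 and 12 reached 100. Their median in the higher group was 11.7 FPKM against 2.71 for the other listed isoforms. FPKM is divided by length, and the median lengths were 107 and 2581 nt, so the higher FPKM does not mean more reads.

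**Figure D1:**
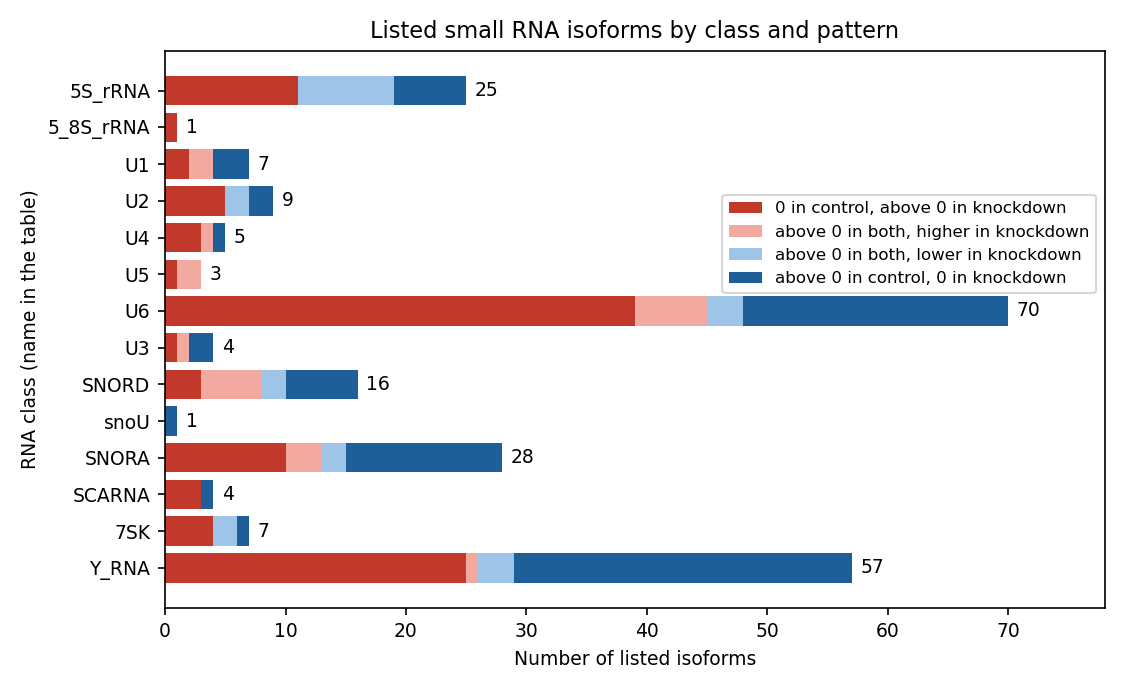
Number of listed small RNA isoforms in each class (vertical axis, names as in the table), split by pattern. Dark bars are isoforms at 0 in one group, light bars isoforms above 0 in both, and the number at the end of each bar is the class total. Dark segments make up 194 of the 237 isoforms, and U6 (70) and Y_RNA (57) hold most of them.

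The 5S ribosomal entries were the group with the most isoforms above 0 in both conditions that all went one way. Of 25 isoforms named 5S rRNA, 8 were above 0 in both and all 8 fell, where 56.5% of all listed isoforms above 0 in both were lower, with a median log2 fold change of -1.86. Recentring on the table's median (log2 -1.10) could not reverse any of them, since the smallest of these falls was -1.23. Their median after recentring was -0.76. The 2 highest fell from 75.2 to 8.25 FPKM, for a copy with no entry of that ID in GENCODE v29, and from 36.4 to 4.57 FPKM for RNA5SP18. RNA5SP74 fell from 10.6 to 0.983 FPKM, the largest fold of the class (log2 -3.44). RNA5S16, identical over its length to the 5S gene RNA5S1, fell from 12.3 to 2.96 FPKM. The rest of the 8 had nearly the same values, 2.59 to 3.05 FPKM in the control and 0.882 to 1.21 in the knockdown. Reads from identical 5S copies can be assigned to any of them, so the value of a single copy is uncertain. The 8 may share reads and are not known to be separate observations.

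The other 17 5S isoforms did not share that direction. They were at 0 in one group, 11 in the control and 6 in the knockdown. The highest of them were 17.9 and 13.3 FPKM in the knockdown alone and 30.7 and 19.1 FPKM in the control alone. The 16 copies with a sequence were 65.1% to 100% identical to RNA5S1, with a median of 77.2%, so most are diverged copies. The 1 isoform named 5.8S rRNA was at 0 in the control and 2.60 FPKM in the knockdown.

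Among the spliceosomal RNAs, 61 of 94 isoforms were higher in the knockdown (64.9%, beside 46.7% of all listed isoforms). At 0 in one group were 78 (83%, beside 18.1% of all listed isoforms), with 50 at 0 in the control and 28 in the knockdown. Those 50 are part of the 61 higher. Library depth is unknown, and its part in these counts was not tested. Of the 16 above 0 in both, 11 were higher and 5 lower, where 43.5% and 56.5% of all such listed isoforms were. Recentring could not change those counts, since each of the 5 falls exceeds the table's median. U5, which contacts both exons at the catalytic centre, had 3 isoforms, all higher. RNU5E-1, a U5 variant gene that overlaps an exon of a longer noncoding gene, rose from 7.17 to 54.6 FPKM (log2 2.93, with p = 7.43e-06 after adjustment in the authors' deposited table). The pseudogene RNU5A-8P rose from 1.03 to 12.3 FPKM, and the third U5 entry was at 0 and 5.31 FPKM.

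U1 pairs with the 5′ splice site, and its 7 isoforms were split, 4 higher and 3 lower. The largest fold of any small RNA above 0 in both groups was a U1 copy without a GENCODE v29 entry, at 0.158 FPKM in the control and 15.2 in the knockdown (log2 6.58). RNU1-85P rose from 0.204 to 5.92 FPKM. The control values of both are small, so these folds rest on low levels. RNU1-82P was at 0 in the control and 10.8 FPKM in the knockdown, and RNU1-87P at 3.66 and 0. RNU1-124P was at 0 and 3.67 FPKM, and RNU1-34P at 1.01 and 0.

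U2 pairs with the branch point, and 5 of its 9 isoforms were higher and 4 lower. Both U2 isoforms above 0 in the 2 groups fell: RNU2-38P from 1.11 to 0.177 FPKM and RNU2-68P from 1.82 to 0.588. The highest at 0 in the control were RNU2-18P and RNU2-72P, with 2.86 and 2.65 FPKM in the knockdown, and the 2 at 0 in the knockdown had 1.02 and 0.754 FPKM in the control. No U2 isoform exceeded 2.86 FPKM. U4, the partner that keeps U6 inactive until activation, had 4 of 5 isoforms higher. RNU4-4P rose from 1.81 to 3.77 FPKM, RNU4-24P, RNU4-80P and RNU4-78P were at 0 in the control and at 3.93, 4.27 and 6.20 FPKM in the knockdown, and RNU4-9P was at 4.27 and 0. Their higher-group levels lay between 3.77 and 6.20 FPKM, and every U4 copy with a sequence is a pseudogene by name.

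U6 forms part of the catalytic centre of the spliceosome and was the largest class. Of 70 isoforms 45 were higher and 25 lower, and 61 (87.1%) were at 0 in one group, 39 in the control and 22 in the knockdown. Over all listed isoforms 46.7% were higher and 18.1% at 0 in one group. All 64 with a GENCODE v29 entry have a pseudogene name, and their identity to RNU6-1 ran from 74.8% to 99.1% with a median of 85.8%. Of these 64, 46.9% end in TTT and 12.5% in AAA, beside 44.5% and 12% of all 1276 U6 transcripts of GENCODE v29. The listed copies were in this respect like U6 copies at large.

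RNU6-130P, in an intron of IBTK (chr6:82210338-82210440, minus), stood apart in level, at 0 in the control and 431 FPKM in the knockdown (adjusted p = 3.95e-05 by the authors' deposited table). The next U6 copy at 0 in the control, RNU6-930P, had 16.6 FPKM in the knockdown. On the other side RNU6-1034P and RNU6-658P had 20.2 and 19.6 FPKM in the control and were at 0 in the knockdown. RNU6-312P, which overlaps an exon of a retained-intron transcript of PPIL3 (chr2:200881715-200881821, minus), rose from 16.9 to 70.9 FPKM and RNU6-1316P from 2.70 to 10.9. RNU6-820P fell from 2.43 to 0.127 FPKM, RNU6-14P from 17.9 to 2.68 and RNU6-884P from 15.8 to 6.79. High and low copies were thus found in both directions.

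The 5 U6 copies at least 95% identical to RNU6-1 mostly had reads in both groups. RNU6-33P, the closest at 99.1%, rose from 7.37 to 15.0 FPKM. RNU6-37P rose from 2.96 to 7.06 FPKM and RNU6-42P from 6.02 to 12.1. RNU6-14P fell, as given above, and RNU6-47P was at 0 and 2.27 FPKM. Reads of such near-identical copies can come from any of them or from the U6 genes, and no source used here says how the authors assigned reads with several matches.

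The small nucleolar and Cajal body RNAs numbered 53, of which 26 were higher and 27 lower, beside 46.7% and 53.3% of all listed isoforms. They held the highest levels of the set. At 0 in one group were 40 of 53 (75.5%, beside 18.1% of all listed isoforms), with 17 at 0 in the control and 23 in the knockdown. Of the 13 above 0 in both, 9 were higher and 4 lower, where 43.5% and 56.5% of all such listed isoforms were. After recentring they were 10 and 3, since the fall of SNORA73B is smaller than the table's median.

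SNORD58 was the most abundant small RNA, at 9527 FPKM in the control and 20882 in the knockdown (log2 1.13, adjusted p = 0.000384 by the authors' deposited table). SNORD24 followed, with the opposite direction, from 2744 to 1094 FPKM (log2 -1.33, adjusted p = 0.00615 by the authors' deposited table). No other small RNA of the set reached 1000 FPKM in either group. These 2 entries have no GENCODE v29 transcript of the same ID, so no position or sequence is given. A second SNORD24 entry, within the ribosomal protein gene RPL7A, was at 50.1 FPKM in the control and 0 in the knockdown.

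SNORD72 rose from 56.7 to 204 FPKM (log2 1.85). Its host is the ribosomal protein gene RPL37, whose first intron was lower in the authors' deposited intron table, at 479 normalized counts in the control and 47.7 in the knockdown. The snoRNA and an intron of the same gene were thus listed in opposite directions. SNORD37, in the elongation factor gene EEF2, was at 0 in the control and 104 FPKM in the knockdown. SNORD41, in the importin gene TNPO2, was at 114 and 0 FPKM, and SNORD56, in an intron of EDEM2, at 105 and 0. The box C/D RNAs therefore had entries near 100 FPKM at 0 in either group.

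A pair of families shows how copies of 1 name compared. SNORD103 had 3 entries, all higher, from 24.9 to 119 FPKM, from 21.7 to 129 FPKM and from 0 to 67.0 FPKM. SNORD116, an imprinted cluster in SNHG14 on chromosome 15, had 3 entries in both directions. SNORD116-14 fell from 30.2 to 13.4 FPKM, SNORD116-16 rose from 12.1 to 25.9 and SNORD116-13 was at 0 and 25.0. Copies within each family are much alike, so reads may have been divided between them. SNORD105, in the ribosome biogenesis gene PPAN, was at 40.9 FPKM in the control and 0 in the knockdown, while the authors' deposited table has PPAN itself higher, 20.8 against 64.8 normalized counts.

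Of 28 H/ACA entries 13 were higher and 15 lower, and 23 (82.1%) were at 0 in one group. Over all listed isoforms 46.7% were higher and 18.1% at 0 in one group. SNORA58B was the highest, rising from 109 to 285 FPKM (log2 1.39, adjusted p = 0.0171 by the authors' deposited table). SNORA73B, in RCC1, fell from 97.9 to 48.4 FPKM. SNORA28 rose from 6.64 to 41.7 FPKM and SNORA11, in MAGED2, from 9.02 to 30.7. The SNORA42 entry SNORA80D fell from 7.84 to 2.66 FPKM. Its relative SNORA80B, in the ornithine decarboxylase gene ODC1, was at 6.63 and 0 FPKM while the authors' deposited table has ODC1 higher, 1929 against 4347 normalized counts. A SNORA73 copy at 1.58 and 0 FPKM went with its host, a longer gene at 32.9 and 7.35 normalized counts. Pairs with only a listed host isoform or intron went both ways. SNORA37 in MBD2 and SNORA80A in URB1 went with the host feature, SNORA73B in RCC1 and SNORA25 in FAM49B against it. The H/ACA entries at 0 in one group stayed lower, with highest values of 17.8 FPKM (SNORA62) and 6.43 FPKM (SNORA36) in the knockdown and 8.33 FPKM (SNORA25) and 8.08 FPKM (SNORA72) in the control.

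The smaller groups followed the same pattern at low levels. All 4 SCARNA entries, guides for spliceosomal RNA in Cajal bodies, were at 0 in one group, 3 of them at 0 in the control with 4.64 FPKM (SCARNA11), 3.55 FPKM (SCARNA3) and 1.95 FPKM (SCARNA16) in the knockdown. A second SCARNA16 entry was at 1.19 FPKM in the control and 0 in the knockdown. U3, which is needed for the early cuts of ribosomal precursor RNA, had entries at 6.64 and 0 FPKM, 0.190 and 3.33, 0.319 and 0, and 0 and 0.0839. The U6 guide listed as snoU6-53 (SNORD8), in CHD8, was at 15.0 and 0 FPKM.

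Sequence features matched the class names. The 6-base motif TGATGA was found in 8 of 10 SNORD members with a sequence (80%), in 2 of 26 SNORA members, and in 7% of all 5718 GENCODE v29 transcripts of 60 to 120 nt. On the reverse strand it was in 2 of the 10 SNORD members and in 1.9% of those transcripts. ACA followed by 3 bases at the 3′ end was found in 18 of 26 SNORA members (69.2%) and in 6.1% of all 5574 transcripts of 100 to 200 nt, and on the reverse strand in none and in 1.5%. A match describes the letters and identifies no functional element.

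**Figure D2:**
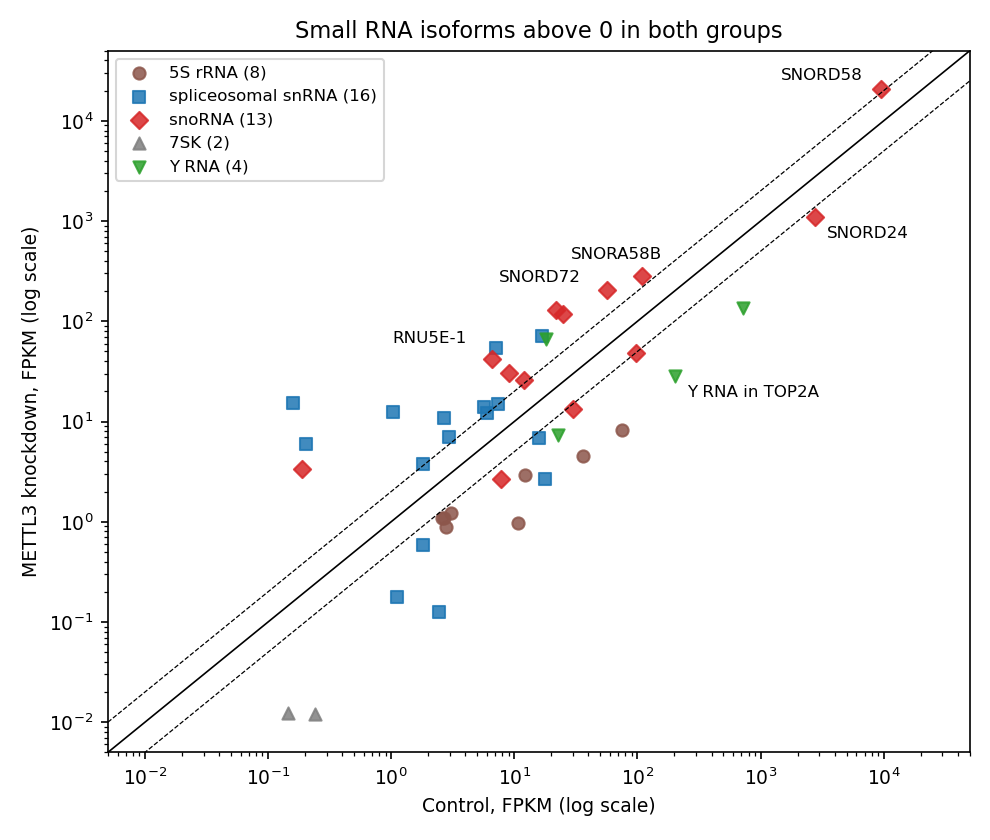
FPKM in the control (horizontal, log scale) against the METTL3 knockdown (vertical, log scale) for the 43 small RNA isoforms above 0 in both groups. Each symbol is 1 isoform with 1 value per group and no error; the solid line marks equal values and the dashed lines a 2-fold difference. The 8 5S isoforms all lie below the lines, and SNORD58 and SNORD24 lie at the top on opposite sides.

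7SK had 7 isoforms, 4 higher and 3 lower, and none exceeded 0.446 FPKM. RN7SKP86 fell from 0.239 to 0.0122 FPKM and RN7SKP151 from 0.146 to 0.0123. RN7SKP245 and RN7SKP78 were at 0 in the control and at 0.291 and 0.218 FPKM in the knockdown, and RN7SKP158 was at 0.446 and 0. All 7 are pseudogenes by name, 65.8% to 79.5% identical to RN7SK. The 7SK gene itself is not among the listed isoforms.

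Of the Y RNA isoforms 53 of 57 (93%) were at 0 in one group, the largest share among classes of at least 5 isoforms, and of these 25 were at 0 in the control and 28 in the knockdown. Higher were 26 and lower 31, and of the 4 above 0 in both groups 1 was higher and 3 were lower, where 43.5% and 56.5% of all such listed isoforms were. An entry without a GENCODE v29 transcript was the highest, falling from 715 to 137 FPKM (log2 -2.38). The copy in TOP2A fell from 201 to 28.6 FPKM (log2 -2.81, adjusted p = 0.0448 by the authors' deposited table). In the authors' deposited table TOP2A fell too (24867 normalized counts in the control, 9456 in the knockdown, log2 -1.39), and 4 of its introns were listed, all lower. The copy and the gene around it thus moved the same way, and whether the copy's reads come from the TOP2A transcript was not tested.

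The highest Y RNA entries at 0 in the knockdown had 43.1 and 27.4 FPKM in the control, and the highest at 0 in the control had 27.9 and 25.5 FPKM in the knockdown. The 49 Y RNA members with a sequence were 65.5% to 93.1% identical to the nearest of RNY1, RNY3 and RNY4, with a median of 86.7%. AAA ended 24.5% of them, beside 24% of all 812 Y RNA transcripts.

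Length was shared by nearly all of these isoforms. The 196 with a GENCODE v29 transcript were 66 to 334 nt long, with a median of 107 nt, while the other listed isoforms had a median of 2581 nt. At up to 200 nt, 155 of 185 small RNA members (83.8%) were at 0 in one group. Among the other listed isoforms of that length, 27 of 34 (79.4%) were, and 29 of those 34 are microRNA hairpins (hsa-mir). Among the 4820 other isoforms above 200 nt the share was 11.2%. It was 30% above 200 and up to 400 nt, 15% above 400 and up to 1000 nt and 10.7% above 1000 nt. Of the 11 small RNA members above 200 nt, 8 (72.7%) were at 0, against 6 of 20 other isoforms up to 400 nt. Short isoforms outside the members were thus nearly all hairpins, 25 of 29 of them at 0, and of the 5 with another name 2 were at 0.

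**Figure D3:**
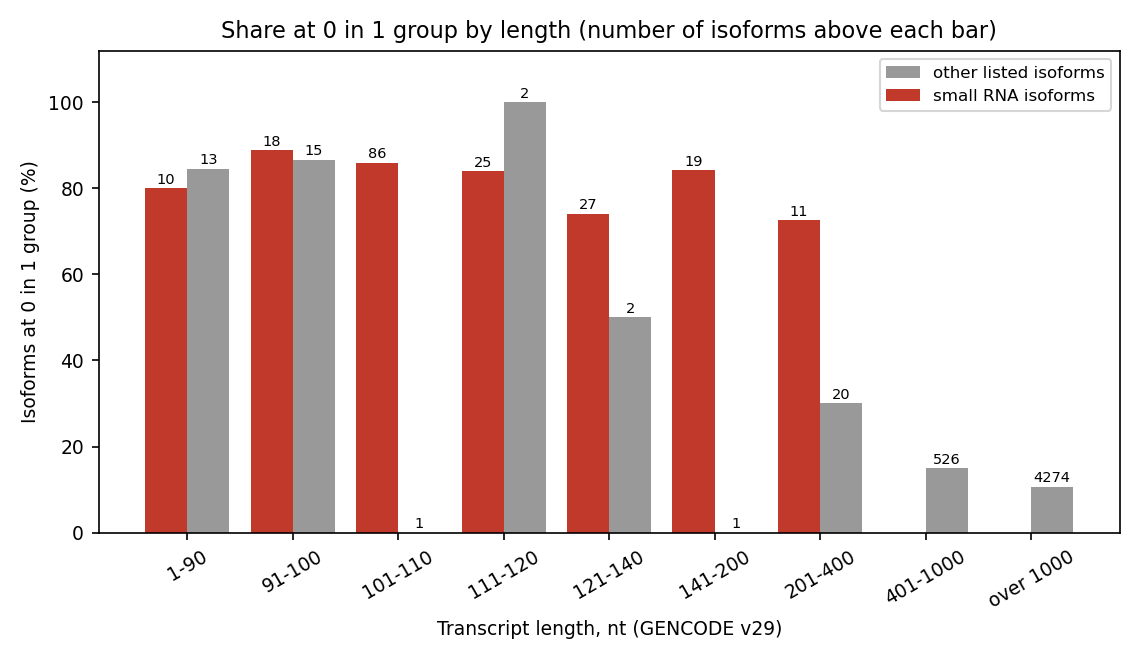
Share of listed isoforms at 0 in one group (vertical, percent) by transcript length in GENCODE v29 (horizontal, nt), for small RNA members and for all other listed isoforms. The number above each bar is the number of isoforms in it, and an empty place is a length range with none. Both sets are high at short lengths, with 86% of members above 100 and up to 110 nt, and the other isoforms drop to 10.7% above 1000 nt.

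The level of the isoforms at 0 in one group also followed length. Over the 163 members with a length, Spearman's rho between length and the FPKM of the group above 0 was -0.74; FPKM is divided by length, so the axes share it. Isoforms of the same length had close values at 102 nt but not at every length. At 103 nt those at 0 in the control ran from 4.25 to 431 FPKM in the knockdown. The 7 Y RNA isoforms of 102 nt at 0 in the knockdown had 14.1 to 19.8 FPKM in the control with a median of 19.5, and the 5 at 0 in the control had 13.4 to 14.8 FPKM in the knockdown with a median of 14.2. At 107 nt, 9 U6 isoforms had 2.65 to 17.0 FPKM in the control alone with a median of 12.2, and 15 had 0.0074 to 15.0 FPKM in the knockdown alone with a median of 11.8.

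The 2 entries that are in both the isoform and the gene table show what such values are worth in normalized counts. These counts are means per group after scaling and not numbers of reads. For the 107-nt Y RNA in TOP2A, 1 normalized count corresponded to 10.7 FPKM in the control and 9.37 in the knockdown. For the 136-nt SNORA58B it was 5.05 and 4.01 FPKM. The highest of the 24 isoforms of 107 nt at 0 in one group lay at 1.58 such counts in the control and 1.61 in the knockdown. The 4 isoforms of 135 to 137 nt had 4.20 to 6.63 FPKM with a median of 5.30. At 107 nt a value of 10 to 15 FPKM thus stands for about 1 normalized count. The conversion at 107 nt rests on the Y RNA entry alone, with 18.7 normalized counts in the control and 3.05 in the knockdown. That at 136 nt rests on SNORA58B alone, and the gene and isoform tables were made separately. RNU6-130P, at 431 FPKM and 103 nt, stood far above other isoforms of its length, while SNORD37, SNORD41 and SNORD56, near 100 FPKM, are among the shortest, at 66, 70 and 72 nt.

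**Figure D4:**
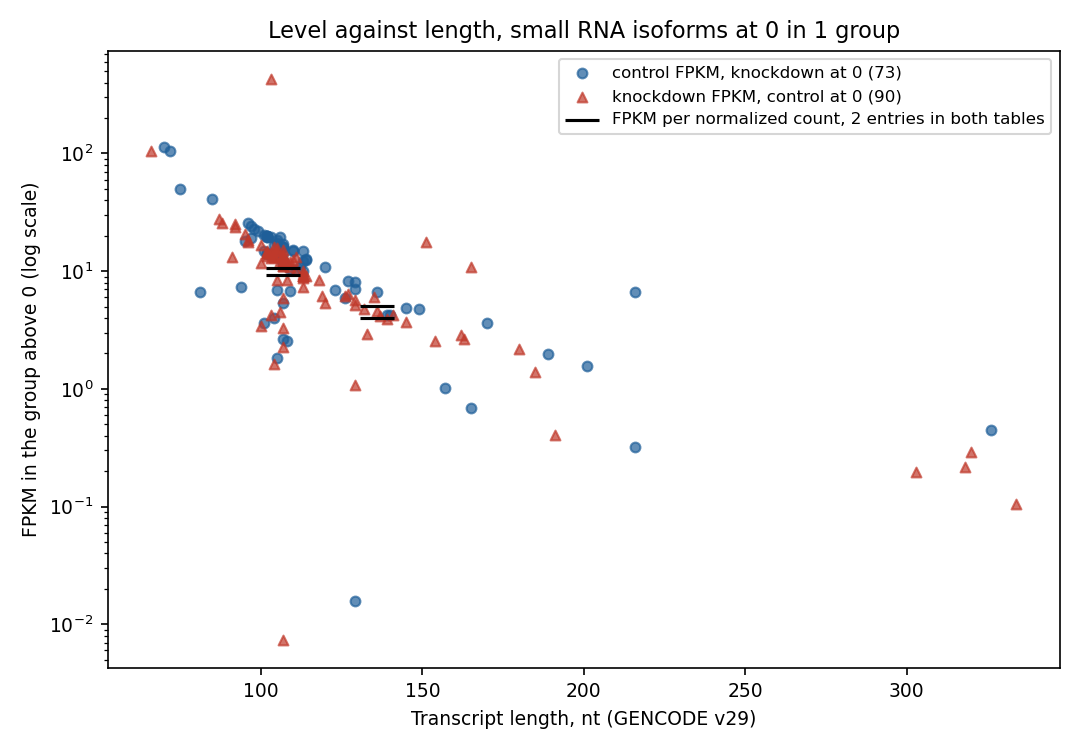
FPKM of the group above 0 (vertical, log scale) against transcript length (horizontal, nt) for the 163 small RNA isoforms at 0 in one group with a length. Circles are isoforms at 0 in the knockdown (73) and triangles isoforms at 0 in the control (90); short black lines mark the FPKM of 1 normalized count at 107 and 136 nt. Most points form a band that falls with length and passes close to those lines, and RNU6-130P lies above it at 431 FPKM.

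The smallest p-values were not limited to high levels. In the authors' deposited table p is printed as exactly 0 for 87 of the 194 isoforms at 0 in one group and for 20 of the other 43, together 45.1% of the small RNA isoforms against 27.3% of all listed isoforms. The 8 isoforms above 100 FPKM that were above 0 in both groups had adjusted p-values of 0.000384 to 0.0459 there. RNU6-33P, at 7.37 and 15.0 FPKM, has an adjusted p of 0.

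Nearly all positions lie inside longer genes. Of the 196 members with a GENCODE v29 position, 193 are inside one of 190 longer genes, 103 in an intron on the same strand, 77 in an intron on the opposite strand, 12 overlapping an exon on the same strand and 1 on the opposite strand. The share at 0 was 83.5% of 115 members on the host's strand and 85.9% of 78 on the opposite one. The 3 members outside longer genes are the 5S copies RNA5SP74, RNA5S16 and RNA5SP18, and none of these was at 0. No source used here says whether the authors counted by strand, so reads of a member and of its host cannot be told apart.

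For 123 of the 193 the host is in none of the gene, isoform and intron tables. For 58 it has a listed isoform, and for 18 it is in the authors' deposited gene table. There it was lower for 14 and higher for 4, beside 58.7% lower and 41.3% higher in that whole table. How many genes the authors tested is unknown, so the 58 and the 18 have no share to be set beside them. The members in those 18 hosts went both ways. RNU6-33P rose while HERC3, on the other strand, fell from 581 to 220.3 normalized counts. RNU6-610P rose from 5.64 to 13.9 FPKM while CATSPER2 fell from 70.1 to 32.4. RNU6-14P fell together with CCDC171, from 111 to 47.7. RNU6-379P was at 0 and 13.3 FPKM while XPNPEP3 rose from 172 to 489. RNU6-101P was at 4.01 and 0 FPKM while GNPTAB rose from 2188 to 4714.

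The other deposited tables hold few small RNAs. The gene table lists 8 among its 1977 genes, 4 higher and 4 lower, beside 41.3% higher and 58.7% lower in the whole table. SNORA58B rose from 21.5 to 71.0 normalized counts, SNORA48 from 27.0 to 59.8, SNORA14A from 1.84 to 14.4 and the microRNA gene MIR663B from 3.29 to 17.8. RNU6-395P fell from 35.4 to 13.9, the snoRNA RF00278 from 35.0 to 13.7, and 2 Y RNAs (RF00019) from 43.8 to 20.4 and from 18.7 to 3.05. SNORA58B and the Y RNA in TOP2A are the 2 entries found in both tables, each with the same direction in both (log2 1.72 and -2.61 by gene). The table with 1 value per gene thus listed few of the names that fill the isoform table.

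In the authors' deposited table of introns, 5 introns belong to loci merged with a small RNA, and all 5 were lower, as were 71.7% of the 2672 listed introns. Introns 1 and 2 of the locus of TMEM107 and SNORD118, the U8 RNA that acts in large-subunit ribosomal RNA processing, fell from 43.6 to 7.40 and from 120 to 21.4 normalized counts. Intron 4 of TECPR2 with RNU6-244P fell from 26.7 to 1.64, intron 1 of ATP5MC3 with a Y RNA from 343 to 168, and intron 11 of MUC17 with RN7SKP54 from 54.7 to 7.82. None of the 474 listed exons is a small RNA.

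The proteins that make, modify or carry these RNAs were listed in part. Of 132 genes in 8 lists, 6 are in the authors' deposited gene table, 4 higher and 2 lower, where 41.3% of its genes are higher and 58.7% lower. How many genes the authors tested is unknown, so the number listed has no share to be set beside it. DGCR8, which with DROSHA crops microRNA hairpins, fell from 913 to 456 normalized counts. TARBP2, a partner of DICER1, rose from 175 to 387, and TNRC6A, a scaffold of the silencing complex, from 1982 to 4440. LSM6 and LSM7, which sit in the ring at the U6 3′ end, went in opposite directions, from 174 to 69.0 and from 71.3 to 181. SNAPC4, a subunit of the factor that reads snRNA promoters, rose from 158 to 321.

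Of the 132 genes, 25 appear in the isoform table, with 23 isoforms higher and 15 lower, and 15 appear in the list of introns, with 6 introns higher and 11 lower. All listed isoforms were 46.7% higher, and all listed introns 28.3%. RO60, the Y RNA binding protein, had 4 isoforms, 2 higher and 2 lower, and an intron that fell from 2882 to 1095 normalized counts. METTL16, the U6 methyltransferase, had an isoform that rose from 4.76 to 11.9 FPKM, and SSB, the La protein that binds polymerase III transcripts, one from 0.672 to 2.41. LARP7, the 7SK binding protein, had an intron that fell from 137 to 50.8. None of the 6 SRP proteins and none of the 27 snoRNA host transcripts (GAS5, ZFAS1 and the SNHG genes among them) is in any of these tables. Across the lists members were found in both directions.

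Other small RNAs, spelled otherwise in the table and left out of the counts above, had a like pattern. Of 32 microRNA hairpins (hsa-mir) 28 (87.5%) were at 0 in one group and 21 (65.6%) were higher. Of 27 signal recognition particle RNA entries (SRP_euk_arch) 23 (85.2%) were at 0 and 15 (55.6%) higher. The shares over all listed isoforms are 18.1% at 0 and 46.7% higher. Of the hairpins 27 matched RefSeq (GRCh38.p14). The sequences below are those of hairpins in hosts listed in the authors' deposited gene table, with the seed (bases 2 to 8) in capitals. The 3p arms of mir-301a and mir-454 share the seed AGUGCAA. Both come from an intron of SKA2 on the minus strand of chromosome 17 (chr17:59151149-59151171 and chr17:59137787-59137809), and miR-675 from an exon of H19 (chr11:1996800-1996822 for the 5p arm, minus).
hsa-miR-301a-3p: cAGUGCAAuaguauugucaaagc
hsa-miR-454-3p: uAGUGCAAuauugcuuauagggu
hsa-miR-675-5p: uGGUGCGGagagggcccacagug
hsa-miR-675-3p: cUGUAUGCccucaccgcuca

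The mir-675 entry fell from 4869 to 926 FPKM, and the authors' deposited tables have H19 lower too, at 39347 and 9724 normalized counts for the gene and 1156 and 270.2 FPKM for an isoform. The entry is a stretch of an H19 exon, so its value does not separate the hairpin from the H19 transcript. For mir-301a and mir-454 the directions differed from the host. They were at 0 in the control and at 30.7 and 8.58 FPKM in the knockdown, while SKA2, a kinetochore protein gene, fell from 2820 to 938 normalized counts. Other hairpins lie in hosts with only a listed isoform or intron. The entries mir-623 (UBAC2), mir-933 (ATF2), mir-941 (DNAJC5), mir-627 (VPS39) and mir-657 (AATK) had the direction of those host features. The entry mir-548f-2 (ERBB4) had the opposite direction. Mature microRNAs, the 20 to 23 base forms printed above, were not measured by these libraries.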

How the data were processed

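HepG2 RNA was measured in 2 control and 2 METTL3 knockdown libraries. As tools, the submitters' processing notes give DESeq 1.5.24 and HTSeq, Cuffdiff 1.0.3, Cufflinks, TopHat 1.2.0 and CASAVA 1.8, with hg18 as the build; which tool made which table is not stated. For isoforms the authors deposited 1 FPKM value per group and the natural log of their ratio, per the file headers, and log2 of knockdown over control was computed here. For genes and introns the authors deposited, per the file headers, group means as normalized signal (counts over a size factor), their fold ratio and its log2. All p-values, raw and adjusted, are those the authors deposited. The values show that a feature is listed if its adjusted p is under 0.05 and the groups differ at least 2-fold.

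Isoforms were chosen by gene name and counted by class with Python 3.11.15 and pandas 2.3.3, with no test, since no library values exist for them. The counting was tested on simulated data. Lengths, positions (GRCh38) and sequences came from GENCODE v29 by transcript ID, with no conversion from hg18, for 196 members and not for 41. Identity is the share of equal bases in a global alignment (Biopython 1.88). Named isoforms are all of a class of 5 or fewer, otherwise the 2 largest rises and falls and the 2 highest means above 0, and the 2 highest at 0 in each group; copies close to RNU6-1, SNORD families, members in called hosts and the microRNA examples were chosen after their values were seen. Members and lists were chosen with earlier results of these data known. Counts were repeated with a mean of at least 5 FPKM, an adjusted p under 0.01, 1 isoform per name, a pseudocount of 1 FPKM, recentring on the table's median, no clone or host gene names, and without U6 and Y RNA. A Y RNA copy that this rule names, and the U6 sequences, are not reported here.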

Additional observations from a re-analysis of the deposited data

How the results depend on the processing

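The counts fall where the construction keeps fewer isoforms. With a mean of at least 5 FPKM 75 isoforms were higher, 63 lower and 107 at 0 in one group (77.5% of those kept, beside 10.9% of all listed isoforms kept). The members are short, with a median of 107 nt against 2581 nt for the other listed isoforms. The same FPKM floor therefore stands for fewer counts in members and need not remove those with very few. With 1 isoform per gene name the counts were 23, 21 and 39 (88.6% at 0). Without U6 and Y RNA, an alternative chosen after seeing the data, they were 58, 52 and 80 (72.7% at 0). The share at 0 stayed between 72.7% and 88.6%, and none of these settings applies a floor by counts. The median log2 fold change of the isoforms above 0 in both groups was not stable. It reversed to 1.10 with a mean of at least 5 FPKM, to 1.39 with 1 isoform per name and to 0.080 after recentring. It was -1.22 at an adjusted p under 0.01, -0.18 with the pseudocount and -1.10 without U6 and Y RNA. Nothing is listed between -1 and 1, so with 21 isoforms on one side and 22 on the other a few decide its sign. The adjusted p, the pseudocount and the recentring kept the counts within 1.5 times, and leaving out clone and host gene names removed none.

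No paired analysis was possible because the isoform, gene and intron tables hold group values only. Leaving out a replicate was not possible for the same reason. Library depth is unknown, and its part in the isoforms at 0 in one group was not tested. By a conversion that rests on the TOP2A Y RNA entry alone, those of 107 nt lay at up to 1.61 normalized counts. A transcript listed at 0 can lie below that. How reads shared by near-identical copies were assigned, the strand setting and the isoforms that were tested but not called are not known here.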
